A study of Mus musculus with 6 samples.

Results

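The Egr transcription factors Egr1, Egr2, Egr3 and Egr4 and their co-repressors Nab1 and Nab2 were followed in adult mouse cerebral cortex. These 6 genes were taken by name from tables of 55450 genes, and all 6 were among the 27939 genes with enough reads to be tested. Polyadenylated RNA was sequenced in 6 libraries, 3 from cortex heterozygous for Setd5, a SET-domain chromatin gene, and 3 from wild type cortex. The labels give genotype and tissue, but not the kind of Setd5 allele, strain, sex or age in weeks, and whether each library is a different animal is not stated. Titles of a pair of heterozygous libraries differ only by a letter, and a wild type title has another form than the rest. What this means for their origin is not stated. Every p below thus reflects variation among 6 libraries, some of which may be technical. Total counts ran from 82850628 to 92860628 a library. Levels are in CPM, a gene's counts relative to the library total after scaling for composition. In whole tissue a change in the number of cells that express a gene and a change of its RNA per cell cannot be told apart.

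Egr genes encode zinc-finger transcription factors that bind GC-rich elements in promoters. In neurons they are immediate early genes: synaptic activity acts through the ERK kinase cascade and CREB on serum response and cyclic AMP response elements, and transcription starts within minutes without new protein synthesis. Nab1 and Nab2 bind an inhibitory domain of Egr1, Egr2 and Egr3, a domain that Egr4 lacks, and recruit the NuRD remodelling complex through Chd4. Nab2 is itself an Egr target, so the pair of families forms a negative feedback loop. In cortex Egr1 is used as a marker of recent neuronal activity, Egr3 takes part in synaptic plasticity, and Egr2 is best known as the driver of myelination in Schwann cells.

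Promoter sequences are shown because the elements named above can be read in them. Whether these elements have a part in the levels of the members was not tested. The stretch of 250 bases before a transcription start was read from the RefSeq table of GRCm38.p6 for Egr2, Egr4, Nab1 and Nab2. Both strands were searched for the CArG box bound by serum response factor, the cyclic AMP response element TGACGTCA, its core TGACG (which the full element contains) and the Egr site GCGNGGGCG. The Egr2 stretch lies on the plus strand at chr10:67537619-67537868, next to the start of the main GENCODE transcript and within an intron of longer ones, and the Egr4 stretch on the minus strand at chr6:85513590-85513839. Each is written 5′ to 3′, with matches in capitals.
Egr2: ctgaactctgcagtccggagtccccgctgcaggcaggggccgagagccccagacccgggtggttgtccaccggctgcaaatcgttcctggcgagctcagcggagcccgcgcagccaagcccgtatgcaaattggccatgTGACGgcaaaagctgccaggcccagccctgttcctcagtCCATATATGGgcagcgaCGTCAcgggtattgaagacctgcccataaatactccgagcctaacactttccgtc
Egr4: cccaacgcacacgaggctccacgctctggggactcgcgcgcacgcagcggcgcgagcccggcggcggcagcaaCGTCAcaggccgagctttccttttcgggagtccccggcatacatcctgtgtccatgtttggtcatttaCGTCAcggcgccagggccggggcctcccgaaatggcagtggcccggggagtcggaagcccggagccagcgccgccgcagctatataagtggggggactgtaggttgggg

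The Egr2 stretch held 1 CArG box, at bases -72 to -63 from the start, and 2 core sites, at bases -111 to -107 and -55 to -51. Of the 5 starts that RefSeq lists for Egr2, 4 had a CArG box in their 250 bases, and for 3 of these it is the box shown. A CArG box was present for 1.62% of the 27025 genes in the table, so it is an uncommon feature of stretches of this length. Egr4 had 2 core sites, at bases -177 to -173 and -109 to -105, and no CArG box. A core site was present for 19.8% of genes. The full element, present for 1.77% of genes, was found in none of the 4 members searched. Matches of letters describe the sequence and do not show that a factor binds.

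Nab1 had 3 Egr sites and Nab2 none in the stretch searched, where 5.33% of all genes had at least 1. The Nab1 sites, the only Egr sites found in the members searched, are shown with 10 bases on each side. They lie on the minus strand of chromosome 1, at chr1:52500571-52500599, chr1:52500539-52500567 and chr1:52500468-52500496, and the capitals mark the site or its reverse complement.
Nab1 site 1: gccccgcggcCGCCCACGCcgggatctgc
Nab1 site 2: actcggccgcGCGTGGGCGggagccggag
Nab1 site 3: gcggggcgggGCGGGGGCGgcggaggtgg
These lie within bases -141 to -30 of the RefSeq start, while GENCODE M21 starts Nab1 further upstream, at 52500679. The Nab1 stretch was 80.8% G and C, against a median of 52.4% over all stretches, and letters rich in G and C are met more often in such sequence. The Nab2 stretch, at chr10:127666704-127666953, was 72.8% G and C. GENCODE M21 starts Nab2 further upstream, at 127668568, so that stretch lies inside the annotated gene. The bases before the GENCODE start of Nab2 were not searched.

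Over both genotypes Egr1 was the most abundant member per length and Egr2 the least. Mean levels over all 6 libraries, in CPM per kilobase of exon, were 64.2 for Egr1, 29.3 for Egr3, 12.9 for Egr4, 10.4 for Nab2, 6.90 for Nab1 and 3.80 for Egr2. Each gene in this order was above the next in all 6 libraries, except that Egr4 was above Nab2 in 5 of 6. The ranges over libraries overlapped for Egr1 (41.5 to 90.7) and Egr3 (21.6 to 41.8) and for Egr4 (9.03 to 15.5) and Nab2 (7.98 to 12.9 CPM per kilobase), and for no other neighbours in this order. In GRCm38 Egr1 lies at chr18:34859823-34864984, Egr2 at chr10:67535475-67542188 and Egr3 at chr14:70077203-70082614, all on the plus strand. On the minus strand are Egr4 at chr6:85511121-85513589, Nab1 at chr1:52457294-52500679 and Nab2 at chr10:127660918-127668568. The Egr genes are short, with spans from 2469 bases for Egr4 to 6714 for Egr2, and Nab1 is the longest member at 43386 bases. The median span of the genes tested was 9901 bases.

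Setd5, the gene that defines the genotype, was at 69.5, 68.7 and 75.3 CPM in heterozygous replicates 1 to 3 and at 111, 97.0 and 107.5 CPM in wild type replicates 1 to 3. No heterozygous library reached the wild type range (log2 difference -0.56, standard error or SE 0.07; edgeR quasi-likelihood test, adjusted p = 0.258). On the first principal component of log2 CPM, which held 44.6% of the variance, wild type replicate 3 stood apart at 38.7, with the other libraries between -15.4 and 11.5. Leaving it out gave log2 differences of 0.44 for Egr1, 0.34 for Egr2, 0.54 for Egr3, 0.17 for Egr4, 0.34 for Nab2 and -0.01 for Nab1.

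Egr1 was at 406.5, 367 and 261 CPM in heterozygous replicates 1 to 3 and at 305, 202 and 186 CPM in wild type replicates 1 to 3. Heterozygous replicates 1 and 2 were the highest of all libraries, and wild type replicate 1 lay above heterozygous replicate 3, so the groups overlapped. Group means were 345 ± 75.2 against 231 ± 64.7 CPM (SD, n = 3 each), a fold of 1.49 (95% interval 1.09 to 2.04). On the log2 scale this was 0.58 (SE 0.20), with an unadjusted p of 0.0175 and an adjusted p of 0.828 in edgeR's quasi-likelihood test over all genes.

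Egr2 had the widest spread of the 6 members. It was at 17.7, 20.1 and 9.89 CPM in heterozygous replicates 1 to 3 and at 17.4, 7.69 and 4.74 CPM in wild type replicates 1 to 3. Wild type replicate 1 stood beside heterozygous replicates 1 and 2, and the other 3 libraries were lower. The highest library was 4.24-fold above the lowest. The fold between genotypes was 1.60 with a 95% interval from 0.838 to 3.06 (log2 difference 0.68, SE 0.42; edgeR adjusted p = 0.872). Leaving out wild type replicate 1 gave a log2 difference of 1.36, and leaving out wild type replicate 3 gave 0.34.

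Because Egr2 drives myelination in Schwann cells, markers of those cells were read in the same libraries. Of 8 markers 4 had a mean of at least 1 CPM, and these include Sox10 and Gjb1, which oligodendrocytes also express. Pmp2, a peripheral myelin protein, averaged 0.0189 CPM, under the limit of 0.0326 to 0.0364 CPM that a count of 0 allows in a library. That limit is 3 counts and covers counting error only. The markers summed to between 52.4 and 64.2 CPM in heterozygous and between 50.9 and 63.9 CPM in wild type libraries.

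Egr3 separated the libraries most sharply. It was at 184, 181 and 101 CPM in heterozygous replicates 1 to 3 and at 116, 98.2 and 95.2 CPM in wild type replicates 1 to 3. Heterozygous replicates 1 and 2 stood apart from the other 4 libraries, among which heterozygous replicate 3 lay inside the wild type range. The fold was 1.51 with a 95% interval from 1.11 to 2.05 (log2 difference 0.59, SE 0.20; unadjusted p = 0.0139; edgeR adjusted p = 0.828).

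Egr4, the family member without the domain that Nab proteins bind, was at 33.2, 32.3 and 27.0 CPM in heterozygous replicates 1 to 3 and at 32.0, 22.8 and 19.4 CPM in wild type replicates 1 to 3. Wild type replicate 1 again lay with the heterozygous libraries. The fold was 1.25 with a 95% interval from 0.963 to 1.61 (log2 difference 0.32, SE 0.17; edgeR adjusted p = 0.864). The log2 difference became 0.55 when wild type replicate 1 was left out and 0.17 when wild type replicate 3 was.

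**Figure D1:**
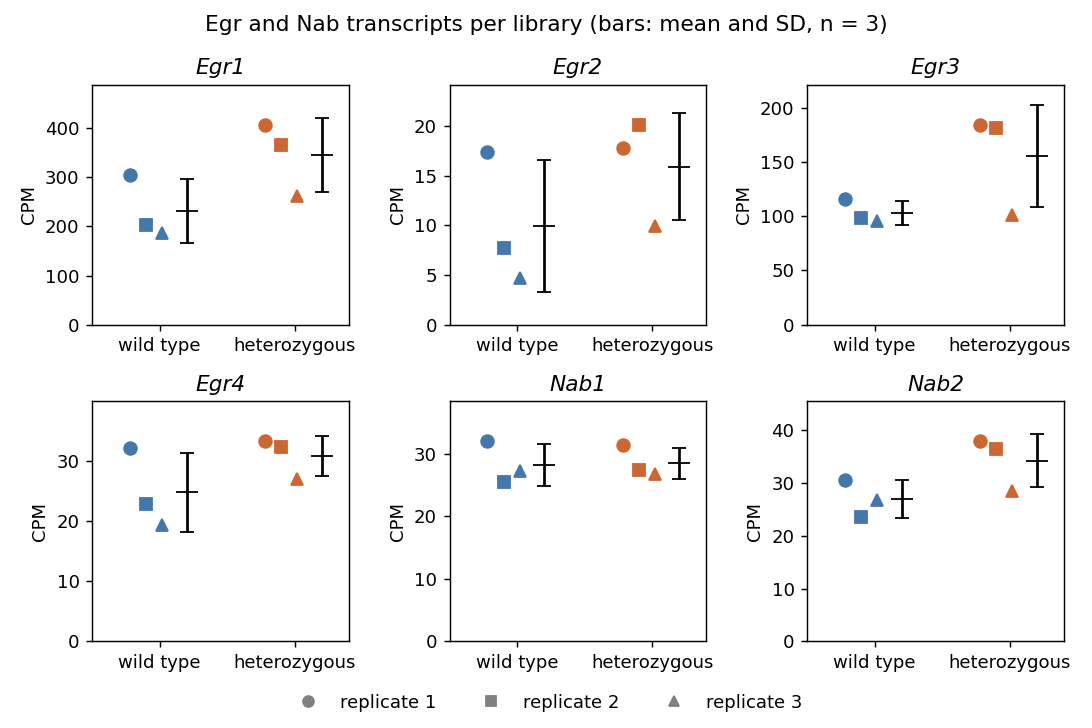
Level of each member in CPM (y axis, from 0) in wild type (blue) and heterozygous (orange) libraries, with marker shapes for replicates 1 to 3 and bars for the mean and SD. Heterozygous replicates 1 and 2 lie above every wild type library for Egr1, Egr2, Egr3, Egr4 and Nab2, heterozygous replicate 3 does not, and Nab1 shows no such order.

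The co-repressors differed from each other. Nab2 was at 37.9, 36.4 and 28.5 CPM in heterozygous replicates 1 to 3 and at 30.6, 23.5 and 26.8 CPM in wild type replicates 1 to 3. Its libraries were ranked nearly as those of Egr1, with heterozygous replicates 1 and 2 highest. The fold was 1.27 with a 95% interval from 1.05 to 1.54 (log2 difference 0.35, SE 0.13; unadjusted p = 0.0209; edgeR adjusted p = 0.828).

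Nab1 was at 31.3, 27.3 and 26.7 CPM in heterozygous replicates 1 to 3 and at 31.9, 25.4 and 27.2 CPM in wild type replicates 1 to 3. Replicate 1 of each genotype was highest, and the other 4 libraries lay between 25.4 and 27.3 CPM. The log2 difference was 0.02 (SE 0.10; edgeR adjusted p = 0.991), and its 95% interval on the fold scale ran from 0.864 to 1.18. Its sign changed under 7 of 18 other settings.

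Reads of Nab2 may be shared with a neighbour. The antisense RNA gene Gm16229 lies inside Nab2 on the opposite strand (chr10:127663839-127665484, plus strand), and 1050 bases of its exons overlap exons of Nab2, or 35.7% of Nab2's exon length. The library kit does not mark strand, and how reads in shared exons were assigned is not given in the sources used here. Gm16229 counts were 37.6%, 38.1% and 35.0% of Nab2 counts in the heterozygous libraries, in replicate order, and 36.4%, 38.6% and 36.5% in wild type. This share was nearly the same in every library, and Gm16229 had a log2 difference of 0.35 (SE 0.14; edgeR adjusted p = 0.844), as large as that of Nab2. Stat6 and Nemp1 overlap Nab2 by 40 and 151 exon bases, or 1.36% and 5.13% of its exon length. Their log2 differences were 0.05 (SE 0.10; edgeR adjusted p = 0.959) and -0.02 (SE 0.16; edgeR adjusted p = 0.992). In the annotation no other gene overlapped Egr1, Egr2, Egr3, Egr4 or Nab1.

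Over the 6 members, 0 passed edgeR's quasi-likelihood test at an adjusted p under 0.05, as did 0% of the 27939 genes tested. At an unadjusted p under 0.05, 3 of 6 were higher in heterozygous cortex (Egr1, Egr3 and Nab2), against 2.44% of all genes tested. The members were chosen with earlier results of these data known and largely share an order of libraries, so this comparison is a description. The count of members at that p was 0 without heterozygous replicate 1 or 2, 1 without wild type replicate 2, and 3 without heterozygous replicate 3 or wild type replicate 3. It was 5 when wild type replicate 1 was left out. With all libraries it was 1 in the robust quasi-likelihood test, 4 when every gene with a count was kept and 5 with 1 surrogate variable. The share of all genes at that p was not counted in these other fits. No member had groups that did not overlap. Of the 27939 genes tested, 3278 had such groups in either direction. In 5.88% of all genes the heterozygous libraries all lay above wild type. The median log2 difference of the 6 members was 0.46, against -0.001 over all genes. A two-sided exact permutation test of CPM gave p = 0.2 for Egr1, Egr2, Egr3, Egr4 and Nab2 and 0.9 for Nab1, and 3 libraries against 3 cannot go below 0.1. DESeq2 called 0 members too. Its 3 members with an unadjusted p under 0.05 were Egr3, Egr4 and Nab2, with Egr1 at 0.0522, and the lowest adjusted p was 0.448, for Nab2.

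**Figure D2:**
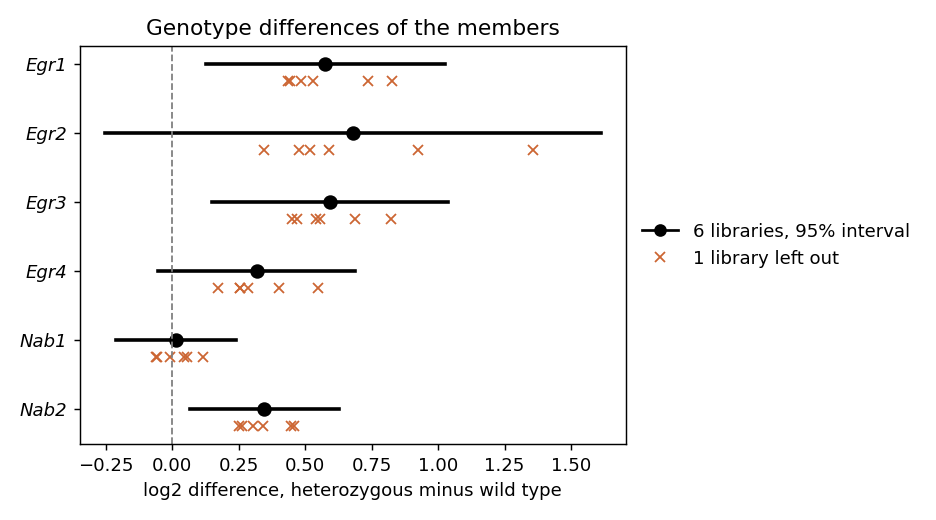
Log2 difference between heterozygous and wild type cortex (x axis) for each member, as the edgeR estimate with its 95% interval (black) and the estimates with 1 library left out (orange crosses). Intervals of Egr1, Egr3 and Nab2 lie above 0 before adjustment for the number of genes, those of Egr2, Egr4 and Nab1 include 0, and the crosses of Egr2 run from 0.34 to 1.36.

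The Egr genes varied between libraries of the same genotype far more than most genes, and Nab2 and Nab1 less so. The pooled SD within genotype, in log2, was 0.77 for Egr2, 0.37 for Egr3, 0.36 for Egr1, 0.29 for Egr4, 0.21 for Nab2 and 0.15 for Nab1. Of the 11227 genes tested with a mean of at least 10 CPM, 99.7% had a smaller SD than Egr2, 98.5% than Egr3, 98.4% than Egr1, 96.9% than Egr4, 92.1% than Nab2 and 80.4% than Nab1.

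The order of libraries was largely shared. They fell in the same order for Egr1, Egr3 and Egr4: heterozygous replicate 1, heterozygous replicate 2, wild type replicate 1, heterozygous replicate 3, wild type replicate 2 and wild type replicate 3. Egr2 exchanged only the first and second libraries, and Nab2 only the last 2. Correlations of log2 CPM over the 6 libraries were computed for 21 relations, the 15 pairs of members and each member with the mean of 33 other immediate early genes. For Egr3 and Nab1 a pair of libraries stood apart from the other 4, by over 50% of the range. None of the 21 relations that involve these genes is therefore given as a pooled correlation. That criterion was chosen after the values were seen.

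Among the other members Egr2 and Egr4 were most alike, with Pearson's r = 0.988 (exact permutation p = 0.0042, adjusted 0.0125) and Spearman's rho = 0.943 (exact permutation p = 0.0167, adjusted 0.025). Egr1 and Egr4 had r = 0.957 (exact permutation p = 0.0014, adjusted 0.0097) and rho = 1.0 (exact permutation p = 0.0028, adjusted 0.0097). Egr1 and Egr2 had r = 0.944 (exact permutation p = 0.0042, adjusted 0.0125) and rho = 0.943 (exact permutation p = 0.0167, adjusted 0.025). After each genotype's mean was subtracted r was 0.984, 0.944 and 0.941 for these pairs. Without the 2 libraries farthest from the median it was 0.959, 0.960 and 0.963. The 3 genes moved together within genotypes as well as across all libraries.

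Nab2 followed Egr1, with r = 0.940 (exact permutation p = 0.0125, adjusted 0.0292) and rho = 0.943 (exact permutation p = 0.0167, adjusted 0.025). That r was 0.879 with genotype means subtracted and 0.994 without the 2 farthest libraries, heterozygous replicate 1 and wild type replicate 3. Nab2 with Egr2 had r = 0.809 (exact permutation p = 0.0583, adjusted 0.0875) and rho = 0.886 (exact permutation p = 0.0333, adjusted 0.0467). Nab2 with Egr4 had r = 0.820 (exact permutation p = 0.0569, adjusted 0.0875) and rho = 0.943 (exact permutation p = 0.0167, adjusted 0.025). For both pairs r did not pass and rho did; r was 0.780 and 0.807 without the 2 farthest libraries and 0.714 and 0.705 with genotype means subtracted. Nab1 was highest in wild type replicate 1 and heterozygous replicate 1, while heterozygous replicate 2, second highest for Egr1, had a Nab1 level 0.04 below the wild type mean in log2.

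**Figure D3:**
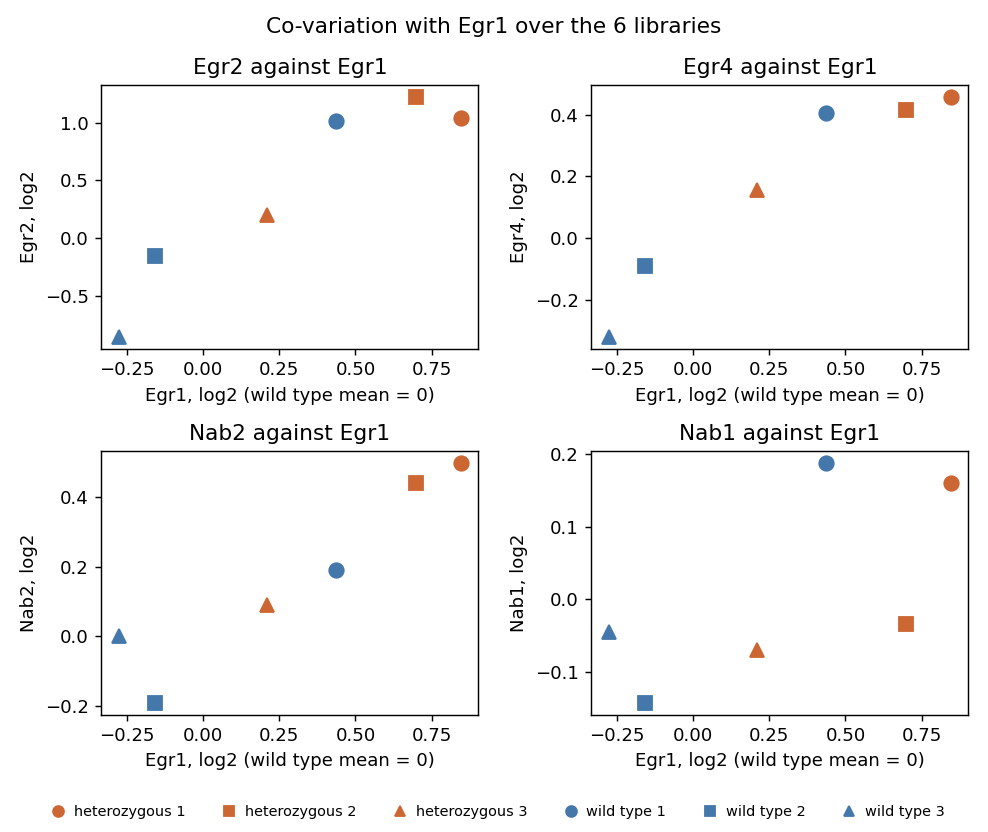
Level of Egr2, Egr4, Nab2 and Nab1 (y axes) against Egr1 (x axes) in log2 CPM relative to the wild type mean, 1 point per library, with colours for genotype and shapes for replicates. Points of Egr2, Egr4 and Nab2 rise with Egr1 across both genotypes, and those of Nab1 fall into a pair of high libraries and 4 lower ones.

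The mean level of the other immediate early genes had the same order of libraries as Egr1. It correlated with Egr1 at r = 0.983 (exact permutation p = 0.0042, adjusted 0.0125) and rho = 1.0 (exact permutation p = 0.0028, adjusted 0.0097). For Egr2, Egr4 and Nab2 that r was 0.962, 0.948 and 0.909, with adjusted exact permutation p of 0.0125, 0.0097 and 0.0318. Their rho was 0.943, 1.0 and 0.943, with adjusted exact permutation p of 0.025, 0.0097 and 0.025. Without the 2 farthest libraries r was 0.963 for Egr1, 0.910 for Egr2, 0.913 for Egr4 and 0.958 for Nab2. Relative to the wild type mean in log2, the mean of Egr1 to Egr4 was 0.80, 0.79 and 0.14 for the heterozygous libraries, in replicate order, and 0.51, -0.12 and -0.39 for wild type. The other immediate early genes were at 0.63, 0.61 and 0.05 and at 0.34, -0.07 and -0.27. Heterozygous replicates 1 and 2 and wild type replicate 1 were the high libraries of both.

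The genes whose pattern over the 6 libraries was most like the mean of the 4 Egr genes, of 11474 compared, were Ier2 (r = 0.995), Zfp667 (0.994), Rpl10 (0.994), Fxr1 (0.993), Zfp651 (0.993), Dnajb5 (0.993), Arc (0.992) and Junb (0.992). Ier2 and Junb encode immediate early nuclear proteins and Arc a postsynaptic protein of activity-dependent receptor trafficking. These values are descriptions: 86 genes had r of at least 0.95, as 6 libraries give high values for many genes. Of 27 other immediate early genes with a mean of at least 5 CPM, 16 had r of at least 0.9 (59.3%), against 2.42% of all genes compared. Gadd45g and Jun reached only r = 0.49 and 0.35, and Inhba and Nr4a2, at r = -0.08 and -0.33, did not share the pattern. Most like Nab2 were Gpatch2l (r = 0.991), Ccdc136 (0.991) and Utp3 (0.989), and most like Nab1 were Atg7 (0.988), Kirrel2 (0.987) and Caskin1 (0.983). For Nab1 a pair of libraries stands apart, as given above, so its r values may rest on that split. The Egr mean includes Egr3, which has such a pair too.

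Markers of striatum, which lies under the cortex, ran in nearly the reverse order of libraries. The 8 markers of striatal projection neurons, none of them at 0, summed to 179, 229 and 393 CPM in heterozygous replicates 1 to 3 and to 123, 229 and 879 CPM in wild type replicates 1 to 3. Their mean level in log2, relative to wild type, was -1.95, -0.35 and 0.89 and -1.93, -0.25 and 2.17 in the same order. Markers of cortical excitatory neurons, all 8 above 1 CPM, summed to between 3170 and 3542 CPM in heterozygous and between 3270 and 3540 CPM in wild type libraries. Camk2a (mean 2051 CPM) and Slc17a7 (852 CPM) make up most of these sums. Of the 8 genes 5 were above and 3 below wild type. At an unadjusted p under 0.05 in edgeR's test, Fezf2 was higher (log2 difference 0.447, SE 0.175) and Rorb lower (-0.305, SE 0.127), against 2.44% and 3.38% of all genes. The mean striatal level had r = -0.742 with Egr1 (exact permutation p = 0.0958), -0.828 with Egr2 (exact permutation p = 0.0486), -0.828 with Egr4 (exact permutation p = 0.0486) and -0.533 with Nab2 (exact permutation p = 0.304). Their rho was -0.886, -0.771, -0.886 and -0.771 (exact permutation p = 0.0333, 0.103, 0.0333 and 0.103). No r or rho passed after adjustment over the 6 members, with adjusted p of r from 0.146 to 0.304 and of rho from 0.0667 to 0.136. Without the 2 farthest libraries these r were -0.297, -0.712, -0.859 and -0.586, so that of Egr1 rests on those libraries. With genotype means subtracted they were stronger, at -0.901 for Egr1, -0.896 for Egr2, -0.922 for Egr4 and -0.605 for Nab2. With the striatal level as a covariate, added after the data were seen, edgeR gave log2 differences of 0.50 (SE 0.10) for Egr1, 0.66 (SE 0.20) for Egr2, 0.51 (SE 0.16) for Egr3, 0.27 (SE 0.09) for Egr4 and 0.31 (SE 0.11) for Nab2. In that fit 5 of 6 members had an unadjusted p under 0.05, and none was called, with a smallest adjusted p of 0.392, for Egr1. The share of all genes at that unadjusted p was not counted in that fit, so the 5 members have no background beside them.

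**Figure D4:**
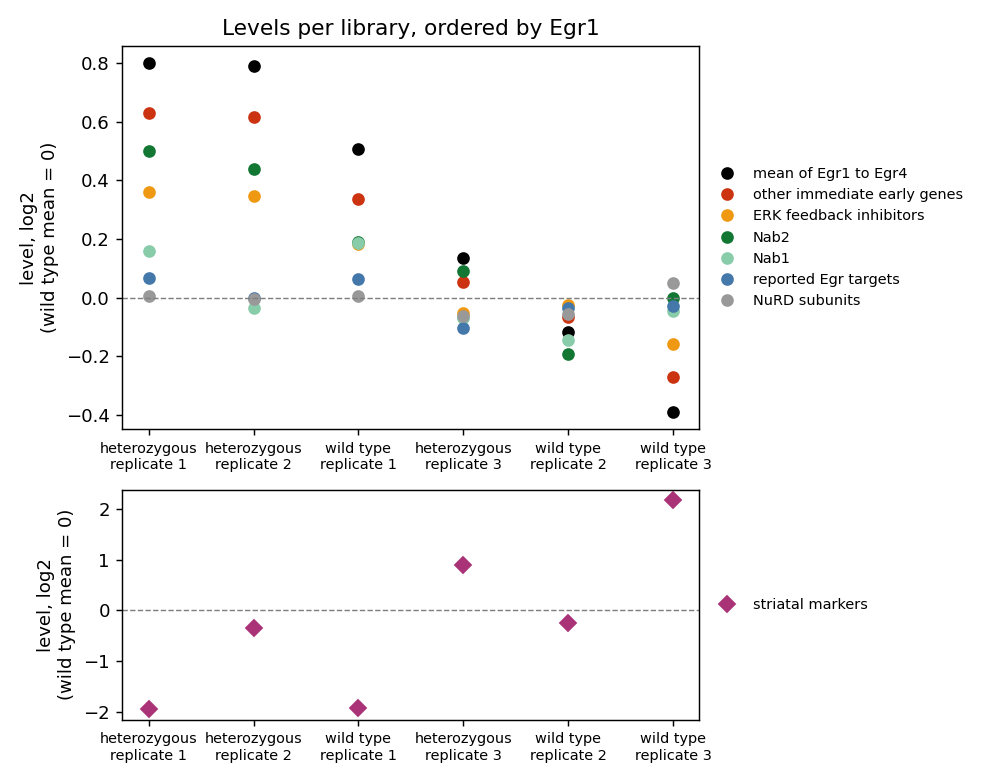
Log2 levels, with the wild type mean at 0 (y axes), in the 6 libraries, ordered by Egr1 (x axis), for Egr, Nab and related gene groups (upper panel, colours) and for striatal markers (lower panel). The mean of Egr1 to Egr4 falls from 0.80 to -0.39 together with the other immediate early genes, NuRD subunits stay between -0.06 and 0.05, and striatal markers run from -1.95 to 2.17 in nearly the opposite order.

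Genes acting upstream and downstream of the Egr proteins were counted in the same fit; 0 passed edgeR's test in any of these lists. Of the 33 other immediate early genes 30 were above and 3 below wild type (median log2 difference 0.44 against -0.001 over all genes); 12 were higher at an unadjusted p under 0.05 and 0 lower. Of all 27939 genes 13933 were above wild type, and 2.44% were higher and 3.38% lower at that p. The smallest p was that of Nptx2, which encodes a pentraxin that clusters AMPA receptors, at 77.6, 79.5 and 55.6 CPM in heterozygous and 46.9, 43.1 and 48.3 CPM in wild type replicates 1 to 3 (log2 difference 0.62, SE 0.13; edgeR adjusted p = 0.720). Npas4, a transcription factor induced by calcium entry, and Ier5, an immediate early nuclear protein, had log2 differences of 0.79 (SE 0.23) and 0.45 (SE 0.14), with edgeR adjusted p of 0.789 and 0.797. For Nptx2 and Npas4, unlike the Egr genes, the groups did not overlap. DESeq2 and edgeR's likelihood ratio test each called 1 gene of this list.

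The Ras, ERK, CREB and serum response factor genes that carry activity signals to Egr promoters did not lean one way. Of 26 genes 14 were above and 12 below wild type (median log2 difference 0.01), and 0 had an unadjusted p under 0.05. Smallest p-values belonged to Elk1, a cofactor of serum response factor, at -0.15 (SE 0.07), Map2k1, the kinase that activates ERK, at -0.15 (SE 0.08), and the ribosomal S6 kinase gene Rps6ka1 at -0.23 (SE 0.14). Serum response factor itself, Srf, chosen after its values were seen, was at -0.06 (SE 0.12). Transcript levels do not measure the activity of these kinases.

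Feedback inhibitors of the ERK cascade, many of which activity also induces, leaned the way of the Egr genes. Of 10 tested 8 were above and 2 below wild type (median log2 difference 0.19), and 2 were higher at an unadjusted p under 0.05, against 2.44% of all genes. These were the MAP kinase phosphatase genes Dusp4, at 0.44 (SE 0.16), and Dusp5, at 0.75 (SE 0.28), both with groups that overlapped. Dusp5 was at 21.7, 21.2 and 11.8 CPM in heterozygous and 14.8, 10.9 and 6.84 CPM in wild type replicates 1 to 3, ranked by library as Egr1 was, and it is also in the immediate early list. Spry2, a sprouty inhibitor of receptor signalling, was at 0.23 (SE 0.11).

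Genes reported as Egr targets did not lean one way. Of 24 genes 11 were above and 13 below wild type (median log2 difference -0.01), and at an unadjusted p under 0.05 there were 0 higher and 2 lower, where 3.38% of all genes were lower. Arc, which also belongs to the immediate early list, was at 420, 380 and 160 CPM in heterozygous and 269, 127 and 66.3 CPM in wild type replicates 1 to 3, in the order of Egr1 and with overlapping groups (log2 difference 1.05, SE 0.47; edgeR adjusted p = 0.855). Ccnd1, a D-type cyclin, was lower in every heterozygous library, at 22.6, 21.6 and 15.9 CPM against 30.3, 35.7 and 47.7 CPM (log2 difference -0.92, SE 0.17; edgeR adjusted p = 0.634). Its lowest heterozygous and highest wild type library were those with the most striatal marker RNA in each group; the part of that tissue in the difference was not tested. Tgfb1, a secreted growth factor, was at -0.53 (SE 0.19). DESeq2, edgeR's likelihood ratio test and edgeR with every gene that had a count each called 1 gene of this list. The level of the whole list stayed between -0.10 and 0.07 in log2 in all libraries.

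Subunits of NuRD, the complex that Nab proteins recruit, differed little in fitted level. Of 14 genes 5 were above and 9 below wild type (median log2 difference -0.01), and 0 had an unadjusted p under 0.05. Chd4, the subunit that Nab2 contacts, chosen after its values were seen, was at -0.01 (SE 0.09). Those with the smallest p were the deacetylase gene Hdac1 at -0.25 (SE 0.13), Mta2 at 0.10 (SE 0.06) and Mta3 at -0.11 (SE 0.08). The NuRD level per library ran from -0.06 to 0.05 in log2, against -0.39 to 0.80 for the mean of the Egr genes.

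Other zinc-finger factors that bind GC-rich elements numbered 10, of which 3 were above and 7 below wild type (median log2 difference -0.07). At an unadjusted p under 0.05, 2 were higher (Klf9 and Wt1), against 2.44% of all genes. Klf9, which glucocorticoids and thyroid hormone induce, was at 461, 440 and 422 CPM in heterozygous and 355, 417 and 345 CPM in wild type replicates 1 to 3 (log2 difference 0.24, SE 0.08; edgeR adjusted p = 0.828), with groups that did not overlap. Klf16 was at -0.21 (SE 0.13) and Maz at -0.14 (SE 0.09). Wt1, the factor whose DNA-binding fingers are closest to those of the Egr proteins, averaged only 0.41 CPM. Among 11 genes that Egr2 controls in myelinating Schwann cells, 6 of the 10 tested were above and 4 below wild type. Mbp, a myelin protein shared by oligodendrocytes, was at 3508, 4251 and 5626 CPM in heterozygous and 2869, 3959 and 3362 CPM in wild type replicates 1 to 3 (log2 difference 0.39, SE 0.17; edgeR adjusted p = 0.855), an order of libraries unlike that of Egr2. The desaturase gene Scd2 was at -0.11 (SE 0.07).

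Markers of other cells of the cortex were mostly fitted below wild type, and 0 passed edgeR's test. At an unadjusted p under 0.05 in that test, 2 of 8 microglia, 4 of 8 endothelial and 7 of 8 meningeal fibroblast markers were lower. Of all genes tested 3.38% were lower at that p. DESeq2 called 1 gene of the meningeal fibroblast list. Microglia markers were below wild type for 8 of 8 genes and summed to between 368 and 408 CPM in heterozygous and between 408 and 441 CPM in wild type libraries. Endothelial markers were below wild type for 7 of 8 and summed to 137 to 141 against 147 to 157 CPM. Meningeal fibroblast markers were below wild type for 8 of 8 and summed to 83.8 to 98.2 against 90.6 to 189 CPM, where wild type replicate 3 (-0.61 in log2 against the wild type mean) lay among the heterozygous libraries (-0.66 to -0.56). None of these markers was at 0 in every library. Their part in the levels of the Egr and Nab genes was not tested.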

How the data were processed

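Polyadenylated RNA of adult mouse cortex was measured in 3 Setd5 heterozygous and 3 wild type libraries. The authors deposited 1 table of unnormalized read counts for each library. The submitters' processing notes list featureCounts, FastQC, DESeq2 and Bowtie2 2.3.4.3, and the builds GRCm38.p6 and mm10. For the settings of these programs, that for strand included, nothing is given in the sources used here. Reads over exon junctions, in shared exons or in near-identical copies may have been lost or split.

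All 55450 identifiers matched GENCODE M21 (GRCm38), which gave symbols, positions and exon lengths. Genes were kept by filterByExpr (minimum count 10, minimum total 15), scaled by TMM and tested on the whole table by genotype alone with edgeR 4.0.16 (R 4.3.3; glmQLFit, glmQLFTest) and Benjamini-Hochberg adjustment at 0.05. CPM use effective library sizes, and log2 CPM a prior count of 1. Correlations used exact permutation of all 720 pairings, two-sided. Of 183 list entries 182 matched.

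The members and gene lists were chosen with earlier results of these data known. Named list genes are those passing the test, or otherwise the 3 with the smallest p and a mean of at least 1 CPM. The genes most alike are the 8 nearest to the Egr mean and the 3 nearest to each Nab gene, with a mean of at least 5 CPM and predicted models left out. Motifs were searched in RefSeq sequences of GRCm38.p6. Replicate numbers are names given here in record order: the titles hold no number that both genotypes share, so they pair nothing. Alternatives were other scalings, filters on low counts and tests (DESeq2 1.42.0, limma-voom 3.58.1), 1 surrogate variable from sva 3.50.0, and each library left out. Some genes of these lists are counted but not reported by name here.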

Additional observations from a re-analysis of the deposited data

How the results depend on the processing

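The members were refitted under 18 other settings, 17 planned and 1, the striatal covariate, added after the data were seen. Log2 differences of Egr1, Egr2, Egr3, Egr4 and Nab2 were above 0 in all 18, and 0 members were called in any of them. With 1 library left out they ran from 0.44 to 0.83 for Egr1, 0.34 to 1.36 for Egr2, 0.45 to 0.82 for Egr3, 0.17 to 0.55 for Egr4, 0.25 to 0.46 for Nab2 and -0.063 to 0.116 for Nab1. Nab1 fell under 0 with library totals only (-0.002), with 1 surrogate variable (-0.013), in quality-weighted limma-voom (-0.029), with the striatal covariate (-0.014) and without heterozygous replicate 1 (-0.063), wild type replicate 2 (-0.058) or wild type replicate 3 (-0.009). The cause was not tested. The lowest adjusted p of any member was 0.304, for Egr3 without heterozygous replicate 3. Over all genes, DESeq2 called 16 higher and 46 lower and edgeR's likelihood ratio test 13 and 16, where the quasi-likelihood test called 0 and 0, with 1628 genes at an unadjusted p under 0.05. The 10 correlations given kept their sign and their side of the threshold under other scalings and a prior count of 5. No paired analysis was possible because the sample titles carry no replicate number that both genotypes share.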
